A study of Mus musculus with 9 samples.

Results

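The comparison of needle injury with sham operation rests on 6 of the 9 uterine horn libraries of the series, 3 labelled injury and 3 labelled sham, which were taken by their group labels. Whether the libraries labelled injury and those labelled CRC stand under their right names could not be checked from the files, and every injury value below depends on it. Of the features tested, 746 differed between CRC and sham and 16 between injury and sham, and no test of the labels was made. All mice were wild type (WT) C57BL females of 8 weeks, and horns were collected on day 7, with 1 library per mouse. Damage in the injury group came from 10 withdrawals of a turned 27 gauge needle, followed by 50 μL of PBS. The sham mice were operated on without a further description of the procedure, so the effect of opening the abdomen and that of handling the horn cannot be told apart from each other. The other 3 libraries came from mice that received conditionally reprogrammed endometrial epithelial cells (CRC) after the same injury, and they entered both the filter on low counts and the estimate of the spread, so that 3722 features were tested, against 3190 with the 6 libraries alone. The comparison asks how the whole horn differs from sham a week after mechanical damage, in a model of intrauterine adhesion.

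The uterine horn has a lining epithelium with glands, a stroma beneath it, and an outer coat of smooth muscle. Mechanical damage removes lining, and repair can end either in regrowth from the remaining epithelium and stroma or in a scar of collagen that joins the opposing walls, which is known as intrauterine adhesion. Strand-specific sequencing records which of the paired DNA strands a transcript came from. When reads are counted with the strand setting reversed, a transcript is lost from its own gene and appears only where another annotated gene lies across it on the other strand.

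Over the 6 libraries, features with an exon of another gene across one of their own, 16.1% of all, held 80.4% of the counts. Xist, the RNA that coats the inactive X chromosome, held 5, 11 and 9 counts in the sham libraries and 3, 6 and 4 in those labelled injury, whereas Tsix, annotated across it on the other strand, held 5196, 6118 and 5377 and then 4425, 4562 and 4364. Actb, the cytoskeletal actin gene, held 0, 0 and 4 counts in sham and 0 in each library labelled injury. A value given below for a feature is therefore the count that the deposited files list under that name. The gene annotated across it is named beside it for called features and where the count is read for that gene, and other features can have further genes across them. Where both genes of such a pair are transcribed, their shares of a count could not be told apart. Overlap between groups is judged on CPM, counts scaled to a common library size, so printed counts can overlap where the scaled values do not.

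Features held 325384, 317754 and 327883 counts in the sham libraries and 290684, 280886 and 282937 in those labelled injury, 0.776% to 0.898% of the records of a library. Sham replicates 2 and 3 stood apart from the other 4 libraries. CT010467.1, annotated as ribosomal RNA and lying opposite Gm42418 on chromosome 17, held 34702 and 40788 counts in these libraries, but 5017 in sham replicate 1 and 13232, 5816 and 7491 in the libraries labelled injury. Ambiguous reads numbered 28622 and 24851 in sham replicates 2 and 3, 2571 in sham replicate 1, and 6470, 5832 and 3506 after injury. Unaligned reads were 3.13% and 2.52% of the records in sham replicates 2 and 3, 1.61% in sham replicate 1, and between 1.37% and 1.81% after injury. Sham replicate 1 was thus on the side of the injury libraries in each of these measures. The share of these library differences in the results below was not tested, and for called features it is said which libraries the call needed.

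The share of feature counts on features with an opposite-strand exon was 80.8%, 81.7% and 82.4% in sham and 79.6%, 78.0% and 79.1% in the libraries labelled injury. All 3 values after injury were lower than all 3 sham values, a difference of -2.72 percentage points (exact permutation of the group labels, p = 0.1, which is the lowest value possible here). Without the 3 features with the most counts the difference was -1.38 percentage points.

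**Figure D1:**
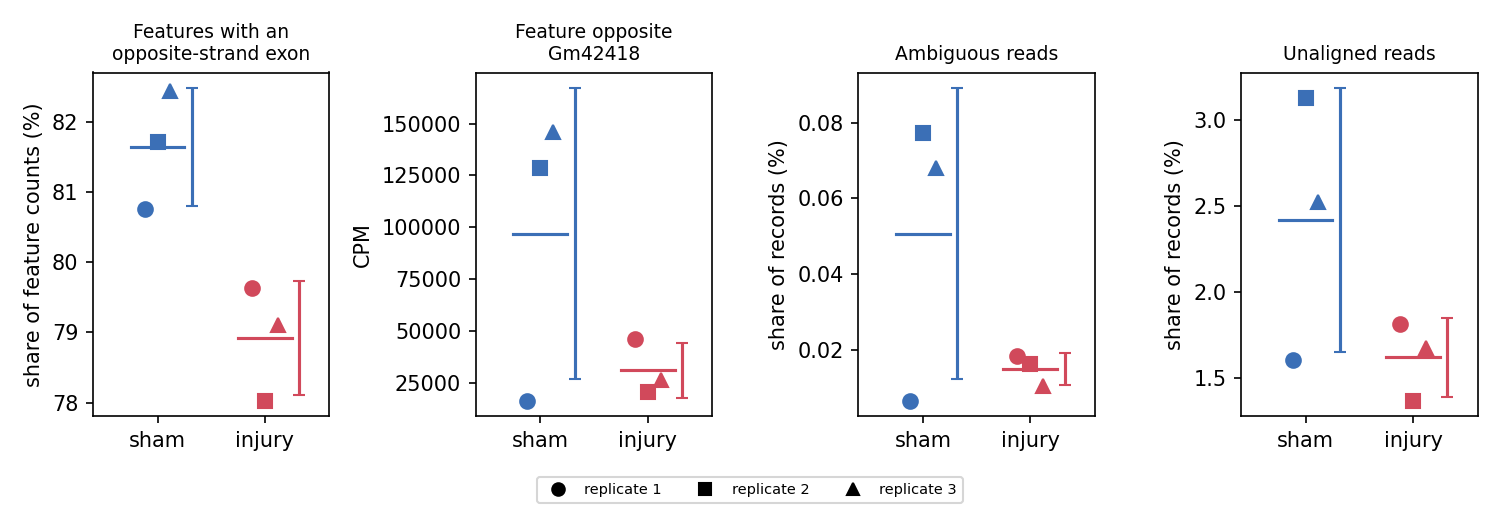
Library measures in sham (blue) and injury (red), with replicates 1, 2 and 3 as circle, square and triangle, the mean as a horizontal line and the SD (n = 3) as a bar beside it. From left to right the axes give the percentage of feature counts with an opposite-strand exon, CPM of the feature opposite Gm42418, and the percentages of records that were ambiguous and unaligned. Sham replicates 2 and 3 lie above the other libraries in the last 3 panels.

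The uterine label was checked on 6 marker genes. Hoxa11os, across the Müllerian duct patterning gene Hoxa11, held 663, 913 and 691 counts in sham and 525, 528 and 596 after injury. Gm48529, across the smooth muscle gene Tagln, held the most counts of the smooth muscle list in every library, 21571, 17779 and 18231 in sham and 15430, 14898 and 15096 after injury. Pgr, the progesterone receptor, had 67, 67 and 90 counts and then 57, 49 and 46. Myh11, smooth muscle myosin, had 68, 81 and 78 and then 42, 45 and 35. Hoxa10 was at 4, 0 and 0 and then 5, 1 and 2 counts, and Esr1, the estrogen receptor, at 1, 0 and 7 and then 2, 4 and 1. For neither of the latter genes does the annotation hold an opposite exon that could carry its reads. So 2 of the 6 markers, Hoxa11 and Tagln, could be read from a feature across them. What the counts on Pgr and Myh11 themselves stand for could not be told, and no reference level was at hand by which to judge the tissue.

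Of 3722 features that passed the filter on low counts, 16 (0.430%) differed between injury and sham by edgeR's quasi-likelihood test (p-values adjusted after Benjamini-Hochberg, under 0.05). Of these, 10 (0.269%) were higher after injury and 6 (0.161%) were lower. Cep85 and Zmym1, both on chromosome 4, had the smallest p-values among the higher features, and Gm48342, across Hmgcs1, among the lower ones. All 6 lower features lay across an exon of another gene. Of the 10 higher ones, 4 did, 2 lay within an intron on the other strand, 3 had neither and 1 could not be placed in the annotation. Of all features tested, 58.8% lay across an exon. When reads outside features were added to the library sizes, 17 features were called, 14 higher and 3 lower. Without sham replicate 1 there were 154, and with any 1 of the other 5 libraries left out between 3 and 14.

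Cep85, a gene for a centrosomal protein, is annotated at chr4:134129858-134187112 (GRCm38, minus strand). It held 111, 85 and 91 counts in sham and 463, 419 and 390 after injury. The groups did not overlap, and the lowest injury library had over 3 times the count of the highest sham library. In CPM the mean was 333 ± 23.7 (SD, n = 3) in sham and 1483 ± 119 after injury, a 4.44-fold rise (log2 fold change 2.15, standard error 0.18, edgeR's quasi-likelihood test, Benjamini-Hochberg adjusted p = 4.7e-09). No gene lies across its exons, and the nearest on the other strand, Ubxn11, ends 2265 bases from the end of Cep85. Against sham replicate 1 alone, a fit added after seeing the data, the log2 fold change was 2.03.

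Zmym1, which encodes a zinc finger protein of the MYM family, spans 127047094 to 127061152 on the minus strand of the same chromosome. It held 65, 46 and 39 counts in sham and 135, 161 and 165 after injury, with no overlap, and rose by a log2 fold change of 1.63 (standard error 0.21). A non-coding gene, Gm12940, lies across it. Cep85 and Zmym1 were the 2 of the 16 features that passed the threshold in every alternative fit that gave them an adjusted p-value, and all 16 kept their direction in each.

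Cdk13, a kinase that acts with cyclin K on the tail of RNA polymerase II, held 395, 245 and 250 counts in sham and 520, 581 and 498 after injury, a 1.81-fold rise. Sham replicate 1 was the highest of the sham libraries, and against it alone the log2 fold change was 0.53 in place of 0.86. Its call was lost without sham replicate 3 or injury replicate 2. Mterf4, a factor for assembly of the mitochondrial ribosome, lies across Sned1, which encodes a secreted protein of the extracellular matrix. It held 590, 263 and 429 counts and then 648, 996 and 898, a 2.01-fold rise, and sham replicate 1 was again nearest to the injury libraries. Naa35, a subunit of an enzyme that acetylates protein N-termini, lies across Golm1, a gene for a Golgi membrane protein, and had 429, 237 and 289 counts and then 567, 542 and 506, a 1.71-fold rise. The Mterf4 call was lost without sham replicate 3 or injury replicate 2 or 3. Naa35 passed the threshold with all libraries and without sham replicate 1, but not with any other library left out or in the fit of the 6 libraries alone.

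Apart from Gm50431, the other higher features were non-coding or of low count. Gm50431, which has no place in the annotation used, held 40, 44 and 32 counts in sham and 83, 109 and 95 after injury. Gm48063 on chromosome 12 held 30, 24 and 15 and then 50, 53 and 63. Gm42963, in an intron of 4930599N23Rik, had 5, 2 and 3 and then 17, 25 and 16. Gm9947, across the gene for the transcriptional repressor musculin (Msc), had 4, 0 and 2 counts and then 11, 18 and 33. In each of these 4 the injury libraries were all above the sham libraries, and the log2 fold changes were 1.30, 1.27, 2.50 and 3.31. That of Gm9947 was 4.17 without sham replicate 1 and 2.43 against it alone. The Gm50431 call was lost without sham replicate 3 or injury replicate 2. Those of the other 3 were lost without sham replicate 3, without any 1 injury library and in the fit of the 6 libraries alone, and those of Gm42963 and Gm9947 also without sham replicate 2. 4930435N07Rik, in an intron of Fam155a, was at 0 in all 3 sham libraries and at 6, 6 and 3 counts after injury. Taking 3 counts over the sham group as the limit that a count of 0 allows, it was at least 5-fold higher after injury, by counting error alone. It entered the test through the CRC libraries, with 40, 30 and 37 counts, and was not tested in the fit of the 6 libraries. Its call was also lost without sham replicate 2 or 3 or any 1 injury library.

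Gm48342 lies on chromosome 13 from 119698360 to 119704549 across Hmgcs1, the enzyme that makes HMG-CoA for cholesterol synthesis. It held 540, 516 and 459 counts in sham and 271, 297 and 242 after injury, so each injury library had fewer counts than any sham library. The log2 fold change was -0.90 (standard error 0.15, edgeR's quasi-likelihood test, Benjamini-Hochberg adjusted p = 0.0024). Among called features it was the one lower after injury that also passed the threshold in the fit of the sham and injury libraries alone, but the call was lost without injury replicate 3.

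Syn3 was the most abundant called feature. Its long locus on chromosome 10, from 86055125 to 86498896, overlaps on the other strand Timp3, which encodes an inhibitor of metalloproteinases bound to the extracellular matrix. Syn3 itself encodes a synapsin, a protein of nerve terminals. The feature held 3981, 3523 and 3449 counts in sham and 2473, 2588 and 2387 after injury. The libraries of each group lay close together, at 12762 ± 377 and 8686 ± 373 CPM (SD, n = 3), and the log2 fold change was -0.56. It did not pass the threshold without sham replicate 3, without any 1 injury library, in the fit of the 6 libraries alone, or when reads outside features were added to the library sizes.

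Gm43118, across the phosphatidylinositol transfer protein gene Pitpnb, held 572, 1005 and 739 counts in sham and 524, 354 and 439 after injury. Here sham replicate 1 was close to the highest injury library, and against it alone the log2 fold change was -0.29 in place of -0.83. Its call was lost without sham replicate 2 or 3, without injury replicate 2 or 3, and in the fit of the 6 libraries alone. Tsc2 encodes tuberin, a brake on the growth kinase complex mTORC1, and it lies across Pkd1, the polycystin gene. It held 167, 174 and 178 counts in sham and 93, 114 and 91 after injury, a log2 fold change of -0.80, while the Pkd1 feature held 9, 5 and 7 and then 9, 10 and 15 counts. The Tsc2 call held in 6 of 20 alternative fits. It was lost when any 1 library other than sham replicate 1 was left out, in the fit of the 6 libraries alone, without the filter, at equal depth, and with reads outside features in the library sizes.

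**Figure D2:**
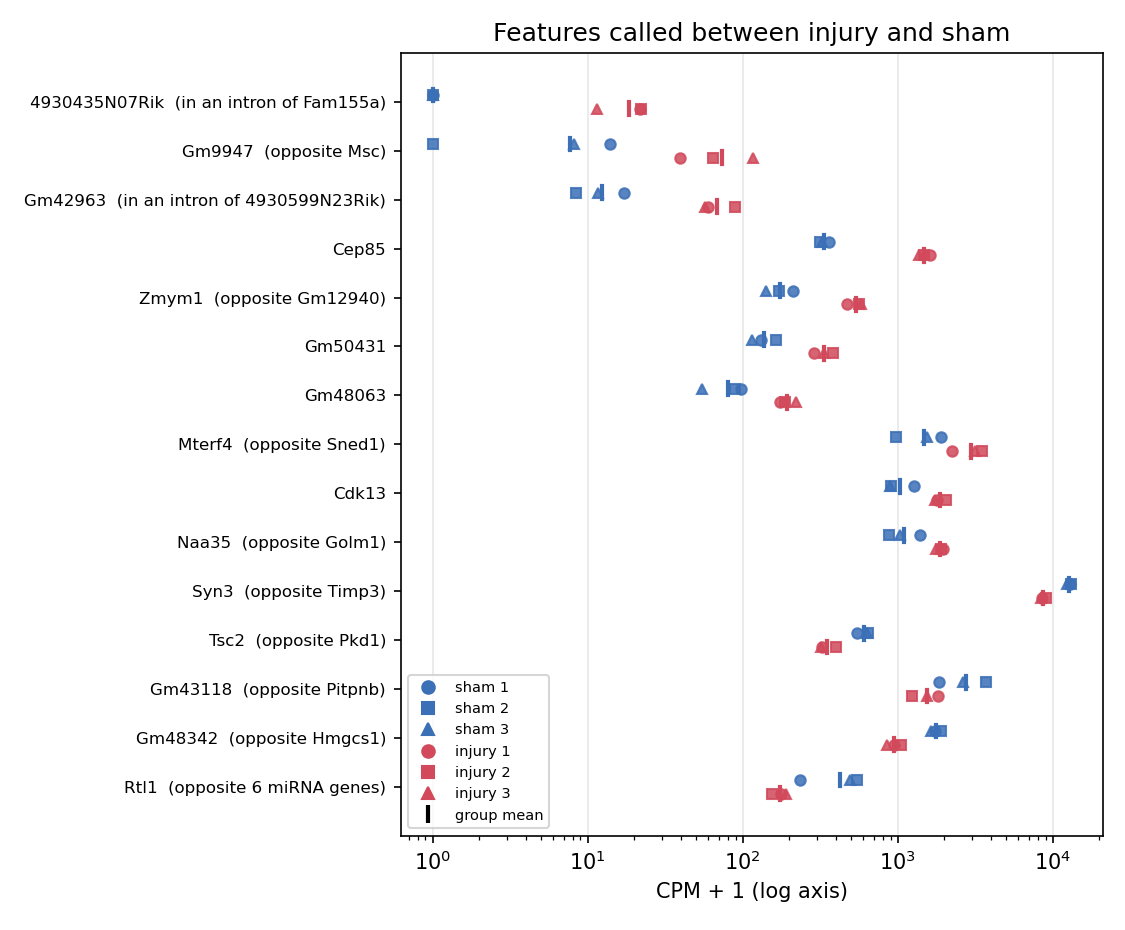
Of the 16 called features, 15 ordered by log2 fold change, with CPM + 1 of each library on a log axis. Sham libraries are blue and injury libraries red, replicates 1, 2 and 3 are circle, square and triangle, and vertical marks are group means (n = 3). Of the 14 shown features with counts in sham, sham replicate 1 is the sham library nearest to the injury mean in 11.

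Rtl1, an imprinted gene derived from a retrotransposon, is annotated at chr12:109589193-109600330 (minus strand). It held 72, 147 and 137 counts in sham and 51, 44 and 54 after injury. The groups did not overlap, but sham replicate 1 lay nearer to the injury libraries than to the other sham libraries. The log2 fold change was -1.28, and -0.44 against sham replicate 1 alone, where it did not pass the threshold. The call was also lost when any 1 library other than sham replicate 1 was left out, and in the fit of the 6 libraries alone. The only annotated exons on the other strand are those of 6 miRNA genes, which are processed from a transcript that is expressed from the maternal chromosome. RefSeq on GRCm38.p6 holds mature sequences for all 6 of them, 11 in all with 11 different seeds. They are printed because they are what is annotated on the strand opposite that of Rtl1. Capitals mark the seed, bases 2 to 8. No mature miRNA was measured.
mmu-miR-431-5p: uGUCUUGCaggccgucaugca
mmu-miR-431-3p: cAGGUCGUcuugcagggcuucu
mmu-miR-433-5p: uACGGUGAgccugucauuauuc
mmu-miR-433-3p: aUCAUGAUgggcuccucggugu
mmu-miR-127-5p: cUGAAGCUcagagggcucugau
mmu-miR-127-3p: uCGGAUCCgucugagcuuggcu
mmu-miR-434-5p: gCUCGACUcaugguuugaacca
mmu-miR-434-3p: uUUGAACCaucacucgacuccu
mmu-miR-432: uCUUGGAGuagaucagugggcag
mmu-miR-136-5p: aCUCCAUUuguuuugaugaugg
mmu-miR-136-3p: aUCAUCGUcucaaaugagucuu

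The promoters of Cep85 and Zmym1, the called features with the smallest p-values, were looked up in RefSeq on GRCm38.p6, where 1 of the 2 matched, without Zmym1. That of Cep85, chr4:134187036-134187335 on the minus strand, is shown because this feature changed most clearly. It was searched on both strands for the motif GGGCGG, for the motif CCAAT and for the motif TATAAA, none of which overlap, and capitals mark the matches. GGGCGG was found 2 times as written and 1 time in reverse complement, CCAAT 2 times in reverse complement, and TATAAA 0 times. Of all 32851 promoters in the table, 35.7% hold GGGCGG, 37.4% CCAAT and 13.6% TATAAA. The promoter serves the annotated strand of Cep85. With the strand setting of these files, reads listed under Cep85 would come mostly from the other strand. The rise is therefore no measure of this promoter, and where the counted reads start was not tested.
Cep85: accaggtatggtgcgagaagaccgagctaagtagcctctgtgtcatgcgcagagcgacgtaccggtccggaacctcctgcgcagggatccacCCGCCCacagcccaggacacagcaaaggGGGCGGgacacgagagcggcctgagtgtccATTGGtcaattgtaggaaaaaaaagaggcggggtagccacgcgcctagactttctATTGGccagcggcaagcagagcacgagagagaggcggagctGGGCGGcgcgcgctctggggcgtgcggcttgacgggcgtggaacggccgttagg

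Without overlap between the groups were 585 features (15.7%), 294 higher (7.90%) and 291 lower (7.82%) after injury. Of those that were not called and held a mean of at least 50 counts, the 8 largest positive and the 8 largest negative log2 fold changes were listed. On the positive side Gm15674, across the complement regulator gene Cd55b, came closest to the threshold (edgeR's quasi-likelihood test, Benjamini-Hochberg adjusted p = 0.053). It held 133, 196 and 123 counts in sham and 253, 268 and 258 after injury. Kctd18, across the shugoshin gene Sgo2a, held 425, 214 and 242 counts and then 446, 545 and 481, and Cdc23, across the mitotic kinesin gene Kif20a, 204, 147 and 141 and then 224, 278 and 309. Gm16559, across the alcohol dehydrogenase gene Adh1, held 201, 122 and 181 and then 198, 327 and 302. The others were Cox20, across Hnrnpu, Rmc1, across the cholesterol transporter gene Npc1, Fdft1 and Gm47640, with log2 fold changes from 0.64 to 0.68. None of these 8 passed the threshold with all libraries.

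On the negative side Gm26885, across the kinase gene Pim1, had the largest value, -1.28, with 67, 174 and 72 counts in sham and 56, 41 and 34 after injury. Its sham replicate 2 was far above the rest. Shc4, across the transcriptional inhibitor gene Eid1, held 145, 195 and 182 and then 114, 85 and 101, and Plppr3, across the splicing regulator gene Ptbp1, 133, 231 and 179 and then 100, 87 and 114. Capn12, across the actin crosslinker gene Actn4, held 111, 187 and 120 and then 85, 77 and 81. The remaining ones were Gm45449, across Rnf150, Gm49077, across the antizyme inhibitor gene Azin1, Rasa2 and Myh11. Of the 16 features in both directions, 13 passed the threshold without sham replicate 1, against 154 of all 4140 features tested in that fit. The 16 had been picked for their size among features without overlap, so the 2 counts are not alike.

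The 10 features with the most counts held 24.2% of the counts of the 6 libraries. Gm37376, across the nuclear RNA Malat1, held 7096, 14037 and 10361 counts in sham and 6630, 6942 and 8038 after injury, and its groups overlapped. Gm20721, across the G protein gene Gnas, held 8122, 5513 and 5912 and then 5348, 6100 and 5917. Taf10, across Ilk, the kinase that links integrins to actin, held 7173, 4833 and 5679 and then 4853, 4800 and 4842. Ap3m1, across vinculin (Vcl), held 6776, 4590 and 5110 and then 4692, 4996 and 4780. Of these 10, Syn3 alone was called. Their log2 fold changes otherwise ran from -1.65 for CT010467.1 to 0.08 for Prss23os, and Tmem252, at -0.14, was the one with no gene across it. The value of CT010467.1 rests on sham replicates 2 and 3, since it was 0.91 against sham replicate 1 alone, where that of Gm37376 was 0.12 in place of -0.57. Among the 373 most abundant features tested, 72 (19.3%) were lower without overlap and 28 (7.51%) higher, against 7.82% and 7.90% of all features tested.

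Smooth muscle was the list with the most counts. Of its 19 genes, 9 had a tested feature, 15 features in all, of which 0 were called, against 0.430% of all features tested, and 12 had a negative log2 fold change. The median was -0.28, against -0.01 for all features tested, and it was negative under each scaling of the libraries. The summed level was 119915, 106001 and 108690 CPM in sham and 90645, 90385 and 90985 after injury, without overlap. Gm48529, across the actin-binding protein gene Tagln, made up most of it, at 69964, 65808 and 65190 and then 53541, 52385 and 52970 CPM. Its log2 fold change of -0.34 did not pass the threshold (edgeR's quasi-likelihood test, Benjamini-Hochberg adjusted p = 0.148). Gm11946 across Smtn, E130310I04Rik across Mylk, Taf10 across Ilk and Myh11 itself, at -0.44, -0.35, -0.28 and -0.90, also lay lower in CPM in every injury library. These 5 of 15 stand against 7.82% lower without overlap over all features tested and 19.3% among the 373 most abundant. Ap3m1 across Vcl did not, and Lmod1 was at 14, 14 and 11 and then 14, 14 and 13 counts. In such bulk tissue, fewer muscle cells and less of this RNA per cell cannot be told apart.

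Of the 40 genes of extracellular matrix and fibrosis, 11 had a tested feature, and Syn3, across Timp3, was the 1 called of 12 features, against 0.430% over all tested. Its median was -0.64, with 10 of 12 negative. Among collagens on their own features, Col6a2, a chain of the microfibrillar type VI collagen, held 94, 241 and 163 counts in sham and 85, 105 and 99 after injury, Col6a1 13, 53 and 35 and then 20, 21 and 21, and Col6a3 17, 49 and 30 and then 11, 26 and 11. Col1a1, of the main fibrillar collagen, was at 10, 16 and 28 and then 5, 6 and 11, and Col3a1 at 10, 23 and 14 and then 8, 7 and 11. In all 5 the groups overlapped, and sham replicate 1 was the lowest sham library. No counted feature lies across an exon of any of these 5 collagen genes, so what their own counts stand for could not be told. Against that library alone the median of the list was 0.08, the opposite sign. Tgfb2 had 7, 11 and 7 counts and then 18, 10 and 14. At 0 in all 6 libraries were 10 genes, among them Postn, Timp1 and both TGF-beta receptor genes, and Ctgf had no feature under that symbol.

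In cholesterol synthesis the log2 fold changes had opposite signs on the paired strands. Of its 22 genes, 6 had a tested feature, and Hmgcs1 was put on the list with the call across it known. All 4 features lying across these genes were negative and the genes' own 4 features positive. Beside Gm48342, negative ones were Ctsb, the cathepsin B gene that lies across Fdft1, with 71, 44 and 53 counts and then 20, 33 and 31, and Akap9, across Cyp51, with 57, 47 and 49 and then 37, 42 and 21. Own features were Fdft1, squalene synthase, with 98, 45 and 78 and then 146, 94 and 111, Sqle with 24, 6 and 18 and then 16, 42 and 19, and Cyp51 with 31, 23 and 22 and then 24, 36 and 41. Of these 8 features only Gm48342 was called, against 0.430% of all features tested. Fdft1 and Ctsb overlap each other, and in CPM the groups did not overlap, Fdft1 being higher and Ctsb lower in each injury library.

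Of 23 genes of the cell cycle, 6 had a tested feature. Of these 9 features 2 were called, both higher, against 0.430% called over all features tested. They are Cep85 and Cdk13, which were put on the list with their calls known, so the count is no evidence on cell division. The median over the list was 0.24, and 0.14 without these 2. For the whole list it was 0.44 without sham replicate 1 and 0.27 against that library alone. Rccd1, across the spindle gene Prc1, held 241, 119 and 179 counts in sham and 310, 219 and 284 after injury. The cyclin A2 gene Ccna2 was at 26, 21 and 13 and then 28, 25 and 35 on its own feature. Exosc9, across it, held 30, 74 and 42 and then 61, 29 and 50, and its groups overlapped. Mki67, a marker of dividing cells, was below the filter at 2, 4 and 5 and then 13, 5 and 8. LTO1, across cyclin D1 (Ccnd1), held 447, 403 and 434 and then 404, 338 and 390, whereas Ccnd1 itself held 113, 67 and 74 and then 93, 97 and 108. Of 11 genes of the TSC and mTOR pathway, 4 had a tested feature and Tsc2, also listed with its call known, was the 1 called of 6, against 0.430% over all tested. The other 5 were positive, with a median of 0.40. Among them was the Pkd1 feature across Tsc2, at 0.69 and higher in CPM in each injury library. With the strand setting of these files, Tsc2 transcripts would be listed under Pkd1, so the call is no measure of Tsc2 RNA.

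Among 23 steroid receptors and hormone targets, 9 had a tested feature. Of these 12 features 0 were called, against 0.430% of all features tested. Their median was -0.28, or -0.08 against sham replicate 1 alone. The summed level was 20028, 19888 and 20407 CPM in sham and 17811, 17486 and 17383 after injury, without overlap. Gm9747, across the insulin receptor substrate gene Irs1, held 2499, 1925 and 2086 counts and then 1668, 1813 and 1582. Gm13032, across Padi1, held 868, 1237 and 1076 and then 905, 485 and 792, and Prss23os, across the protease gene Prss23, 2535, 1950 and 2205 and then 2304, 2427 and 2324. Pgr had a log2 fold change of -0.56 and an unadjusted p under 0.05. The coactivator gene Ncoa3 and the sulfatase gene Sulf2, which overlap each other, lay higher in all 3 injury libraries, Ncoa3 at 17, 6 and 21 and then 36, 37 and 26 counts and Sulf2 at 5, 4 and 2 and then 8, 15 and 9.

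The endometrial stroma list had 4 of 12 genes with a tested feature, and 0 of 6 features were called, against 0.430% of all features tested. Its median was -0.26, or -0.01 against sham replicate 1 alone. Its summed level was 3999, 5504 and 4459 CPM in sham and 3477, 3889 and 3983 after injury, without overlap. Hoxa11os, its most abundant feature, had a log2 fold change of -0.47. Hand2os1, across the progesterone target Hand2, held 17, 44 and 24 counts and then 13, 17 and 14. Nr2f2, a nuclear receptor of the stroma, was at 38, 42 and 40 and then 39, 48 and 47. Of 16 hedgehog genes, 2 had a tested feature. Gm48488, across the co-receptor gene Gas1, held 224, 290 and 399 counts and then 245, 91 and 169, and 9330171B17Rik, across Kif7, 56, 70 and 52 and then 45, 49 and 49. The ligand genes Ihh and Shh and the receptor gene Ptch1 were at 0 in all 6 libraries. No annotated exon that could carry their reads lies across Ihh or Ptch1. Of 20 Wnt genes, 5 had a tested feature, and 0 were called, against 0.430% of all features tested. Their median was -0.03, which became 0.02 with the upper quartile and 0.07 with reads outside features in the library sizes. Gm2670, across the stromal ligand gene Wnt5a, was level at 306, 327 and 298 and then 300, 305 and 312 counts, while Gm48159, across Rspo3, held 25, 43 and 15 and then 9, 12 and 16.

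Genes that the authors assayed by other means were also looked up. Among them, Ihh and Klf9 had also been named as hub genes from the authors' RNA-seq of this series. Of these 15 genes, 4 had a tested feature, and 0 of 5 features were called, against 0.430% of all features tested. The median was -0.56, or -0.15 against sham replicate 1 alone. Ihh, Ptch1 and Lif were at 0 in all 6 libraries. Klf9 held 8, 5 and 3 counts in sham and 8, 3 and 6 after injury, Muc1 4, 1 and 1 and then 2, 4 and 2, Vim 11, 9 and 2 and then 6, 4 and 5, Tgfb1 0, 0 and 5 and then 1, 2 and 0, and Itgb3 2, 0 and 0 and then 5, 5 and 1. Apol7d, across fibronectin (Fn1), held 13, 30 and 43 and then 13, 10 and 25. For Ihh, Ptch1, Lif, Klf9, Muc1, Vim, Tgfb1 and Itgb3 the annotation holds no opposite exon that could carry their reads. With the strand setting of these files, their counts do not show whether these genes were transcribed or changed. What size of difference could be detected at these counts was not tested.

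**Figure D3:**
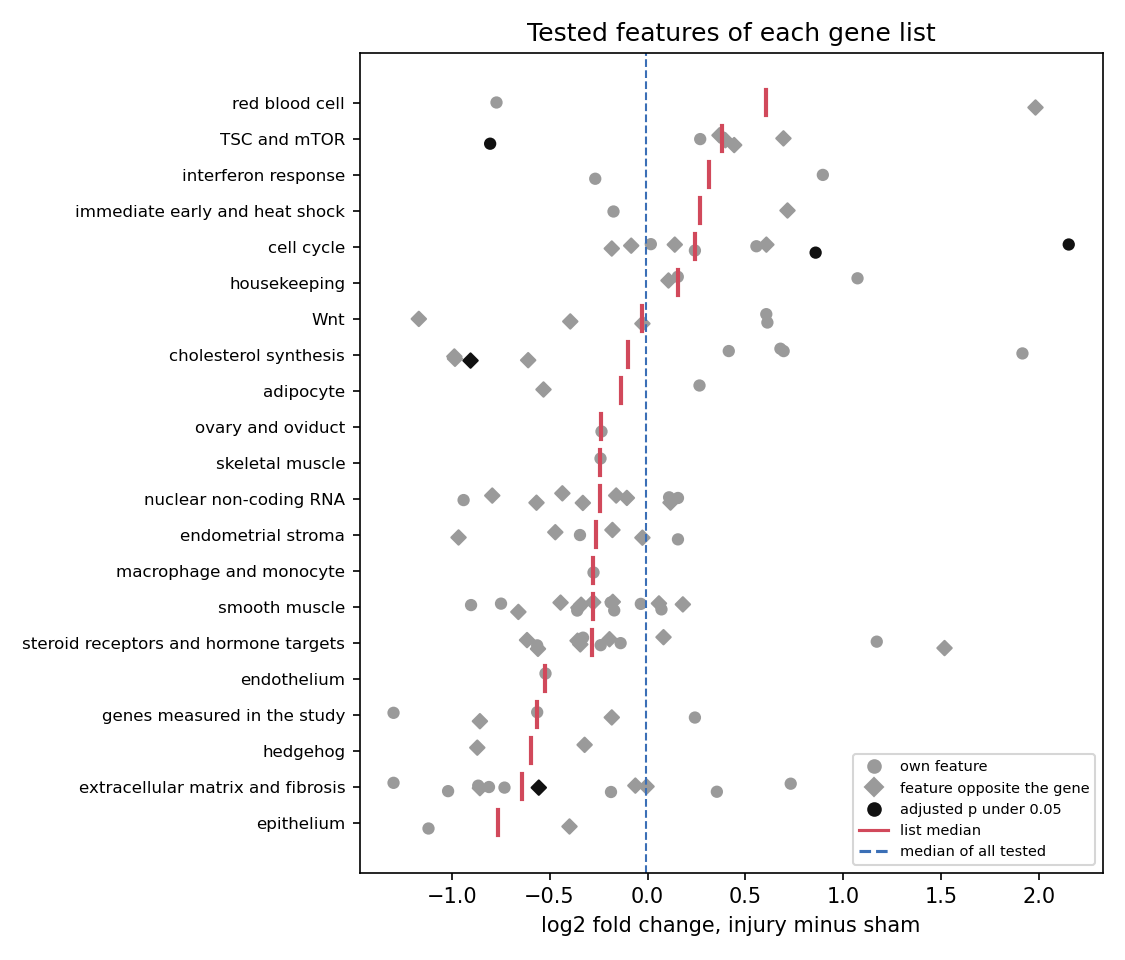
Log2 fold change (injury minus sham) of each tested feature in 21 gene lists, with circles for a gene's own feature, diamonds for a feature lying across it, black for an adjusted p under 0.05, red marks for list medians and a dashed line for the median of all features tested. Called features appear in 4 lists, and in cholesterol synthesis all own features are positive and all opposite ones negative.

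Of the markers of other cell types few had a tested feature. In the epithelium list 2 of 20 genes had a tested feature, and Cdh1, Foxa2, Sprr2f, Lcn2, Cxcl15 and Ehf were at 0. Its summed level was 347, 415 and 286 CPM in sham and 285, 232 and 302 after injury, and its most abundant feature was Gm26642, across both Elf3 and Rnpep, which is no epithelial marker, with 63, 88 and 60 and then 58, 39 and 64 counts. In the endothelium list Egfl7 was the 1 gene tested, with 18, 25 and 20 and then 24, 9 and 11 counts, and Vwf, Tie1 and Cldn5 were at 0. Of 14 macrophage and monocyte genes, Csf1r alone was tested, with 66, 63 and 79 and then 63, 47 and 62 counts, while Adgre1, Lyz2, Mrc1, C1qa and Itgam were at 0. Neutrophil genes summed to 0, 0 and 3 counts in sham and 0, 1 and 4 after injury, all on Ngp. The 9 mast cell and eosinophil genes were at 0 throughout. Those of T and NK cells, B and plasma cells, mesothelium and the inflammatory cytokines had 0 tested features, with summed levels of at most 38.7, 17.6, 25.9 and 10.7 CPM in any of the 6 libraries. Ttn held most of the skeletal muscle list, at 56, 52 and 55 and then 52, 39 and 47 counts, and Star most of the ovary and oviduct list, at 141, 126 and 115 and then 114, 101 and 109. The counts of Csf1r, Egfl7 and Ttn may come from Hmgxb3, Agpat2 and Gm13938, which lie across them. In the adipocyte list 1 gene was tested, Lipe, and Adipoq and Fabp4 were at 0. Lep, below the filter, was at 4, 0 and 5 and then 9, 27 and 9 counts, higher in CPM in each injury library. Of the red blood cell list all globin genes were at 0, and Alas2 had 16, 14 and 13 and then 9, 8 and 8 counts while Apex2, across it, had 7, 1 and 1 and then 15, 7 and 14. With the strand setting of these files, a gene at 0 may still be transcribed, so inflammation or loss of lining could not be read from these lists.

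The remaining lists had 0 calls, against 0.430% of all features tested. In the nuclear non-coding and imprinted RNA list 6 of 12 genes had a tested feature, with a median of -0.25. Kcnq1ot1, an antisense RNA of an imprinted domain, held 671, 594 and 617 counts and then 717, 654 and 660, and Gm44560, across Ube3a, 334, 280 and 312 and then 211, 220 and 253. Of the housekeeping list, Tbp held 362, 204 and 278 and then 293, 341 and 297 counts, and the list's median was 0.15. That median was 0.32 without sham replicate 1 and 0.05 against that library alone. Immediate early and heat shock genes had 2 of 16 genes tested, Zfp36 among them at 35, 61 and 47 and then 51, 51 and 26, and interferon response genes 2 of 10, with Irf7 at 34, 33 and 28 and then 39, 20 and 20 and Usp18, without overlap, at 8, 4 and 11 and then 18, 13 and 12. The interferon median was 0.31. The groups overlapped for Zfp36, Irf7 and Tbp, which lie across Gm44710, Phrf1 and Pdcd2.

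Feature classes differed in where their log2 fold changes lay. The median was -0.06 for the 2190 features across an exon, 0.06 for the 652 within an intron and 0.10 for the 807 with neither. Of the 510 of these 807 whose nearest gene on the other strand lies end to end with them within 10 kb, 55 (10.8%) were higher without overlap and 23 (4.51%) lower, with a median of 0.14. Of the 157 whose nearest gene lies start to start, 11 were higher and 5 lower, with a median of 0.10, and of the 140 with no gene in that reach 11 were higher and 11 lower, with a median of -0.07. Among 620 features annotated as antisense, 36 (5.81%) were higher without overlap and 75 (12.1%) lower. Over all features tested these shares were 7.90% and 7.82%. When reads outside features were added to the library sizes, all medians shifted upward, to 0.04, 0.15 and 0.19, and that of features across an exon changed sign. The order of the 3 classes was the same under each scaling that treats all features together, but against sham replicate 1 alone the median was 0.14 within an intron and 0.10 with neither. With TMM taken within each class, added after seeing the data, 14 features were called and 11 of them were among the 16.

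The CRC libraries share the sham controls, and their values are set beside those of the called features without a test. Of the 16 features, 7 had a CRC mean between those of sham and injury, 8 lay beyond the injury mean and 1, Naa35, lay on the other side of sham. Among the 8 is 4930435N07Rik, which passed the filter through its CRC counts, so its place there follows from the filter. Cep85 was between, at 659 ± 164 CPM (SD, n = 3), against 333 in sham and 1483 in injury, as was Tsc2. Zmym1, at 557 ± 55.7 CPM, was near the injury mean of 538. The feature across Hmgcs1 was lowest in CRC, at 224 ± 22.4 CPM, and Naa35, across Golm1, at 341 ± 42.4 CPM was below sham at 1101 ± 264. Gm9947, across Msc, was at 7.13 CPM in CRC and 6.71 in sham, against 72.4 in injury.

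Leaving out sham replicate 1 changed the number of calls most. Without it 154 features passed the threshold, 71 higher and 83 lower after injury, and all 16 were among them. Across an exon lay 44 of the higher and 65 of the lower ones, and 2360 of the 4140 features tested in that fit. The gene lists held 14 of the 154, among them Gm37376 across Malat1, Hoxa11os, Tsix, Col6a2, Myh11, Fdft1 and Rccd1. The share of list members among all features tested in that fit was not worked out, so the 14 are no result about the lists. The 2 sham libraries left in that fit are those with the most ribosomal, ambiguous and unaligned reads, and the part of this in the calls was not tested. With sham replicate 1 as the lone sham library against the 3 injury libraries, assumed to vary like the other groups, 9 features were called and 5 of the 16 were among them.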

How the data were processed

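RNA from uterine horns was sequenced after removal of ribosomal RNA. The submitters' processing notes name HISAT2 2.1.0 and StringTie 2.1.1. The deposited count files carry the name of HTSeq, and its strand setting is not given. The authors deposited a raw count of reads for each of 55228 features per library, with 5 further rows for reads outside features, which held 99.2% of the records and were left out of library sizes. Groups and replicate numbers came from the labels. The libraries of a group are from separate mice.

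Features were placed by symbol in GENCODE M21 on GRCm38 (53569 matched) and classed by exons on the other strand. In R 4.3.3, edgeR 4.0.16 (filterByExpr by group, TMM, robust quasi-likelihood fit of all 9 libraries, no covariate) compared injury with sham, with Benjamini-Hochberg adjustment over 3722 features. The analysis was tested on simulated data. DESeq2 1.42.0 was an alternative. Between 3.24 and 3.70 CPM corresponded to 1 count in these 6 libraries. Intervals and limits cover counting error only, since PCR copies were not told apart. Chi-square over degrees of freedom between libraries of a group ran from 2.45 to 11.9, above the 1 of sampling alone. Tables and figures used Python 3.11.15 (pandas 2.3.3, scipy 1.17.1, numpy 2.4.6, matplotlib 3.10.9).

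The 27 gene lists and the comparison were chosen with earlier results of these data known. Named features were every called feature, the 8 largest differences in each direction among uncalled features without overlap whose mean was 50 counts or more, the 10 with the most counts, genes measured in the study, and in each list those with an unadjusted p under 0.05 and the most abundant. A few of these, 1 called feature among them, are left out of the text. Other members of the lists were named after their values were seen. Alternatives were other scalings, filters, thresholds and tests, a replicate block, fits of the 6 libraries alone, leaving out each library, drawing down to equal depth, and opposite exon features alone. A fit on sham replicate 1 alone and TMM within each class were chosen after seeing the data, as were list medians without members listed for their calls. Keeping full feature totals as library sizes after filtering replaced an exploratory setting whose results had been seen, with the same 16 calls, and the overlap rule of 50 bases was then limited to single genes.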

Additional observations from a re-analysis of the deposited data

How the results depend on the processing

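The count of 16 called features was within 1.5 times of 16 with DESeq2's size factors (16), the upper quartile (20), DESeq2's Wald test (24, 10 shared, with 3030 of 3722 features given no adjusted p), no filter (24), at least 10 counts in every library (21), library sizes that include reads outside features (17), equal depth (15) and without the 3 features with the most counts (19). It was 6 in the fit of the sham and injury libraries alone and 9 among features with an opposite exon alone. At an adjusted p under 0.01 it was 5, and under 0.1 it was 30. With the replicate block it was 5 over all 9 libraries and 2 over the 6 alone. Same-numbered sham and injury libraries deviated from their group means with correlations of -0.07, -0.04 and 0.01 across features, so the numbers were not taken to pair the mice. With 1 library left out it ranged from 3 to 154, at 154, 14 and 3 without sham replicates 1, 2 and 3 and at 8, 3 and 4 without injury replicates 1, 2 and 3. Of the alternatives chosen after seeing the data, sham replicate 1 alone gave 9 and TMM within each class 14. Where fewer features or libraries entered the fit, that alone can lower the count, and otherwise the cause was not tested.

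No called feature changed direction in the alternatives that tested it. Of 301 values for these features under alternatives, 189 stayed past the threshold and 112 did not. The 58 other named features that were tested passed it in 56 values of the same direction.

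The difference in the share of counts on features with an opposite-strand exon was negative throughout, from -3.16 to -2.27 percentage points with 1 library left out and -2.82 with an overlap of at least 50 bases.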
